A study of Mus musculus with 6 samples.

Results

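The genes described here encode the cytosolic heat shock proteins of the HSP70 and HSP90 classes in the mouse testis. They were chosen by symbol, and all 9 members were found among the 55711 entries of the deposited table. Of these, 3 are forms made mainly or most strongly in male germ cells (Hspa2, Hspa1l and Hspa4l). The other 6 are the stress-inducible pair Hspa1a and Hspa1b and the general forms Hspa8, Hspa4, Hsp90aa1 and Hsp90ab1. RNA was sequenced from whole testis of C57BL6 mice, with 3 libraries labelled as heterozygote controls and 3 labelled as Tmc7 knockout, called knockout-labelled below. Tmc7 encodes a transmembrane channel-like protein, and the title of the series ties it to the volume of elongated spermatids. The controls are heterozygotes, so both groups carry at least 1 altered Tmc7 allele. Age, the nature of the allele and whether each library came from its own animal were not stated in any source used here. The p-values therefore measure only the spread between these libraries, which may in part be technical.

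HSP70 proteins bind unfolded stretches of other proteins and release them in a cycle driven by ATP. J-domain partners (HSP40) start that cycle, and exchange factors such as the BAG proteins and the larger HSP110-type relatives Hspa4 and Hspa4l reset it. HSP90 takes over clients such as kinases and steroid receptors from HSP70 with the help of cochaperones. Male germ cells make their own HSP70 forms. Hspa2 is abundant from the spermatocyte stage on and is needed for meiosis in male mice, and Hspa1l is made in spermatids without heat shock. Hsp90aa1, listed here with the general forms because it is found in many tissues, is also known as abundant in male germ cells.

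Most members share a known feature at the end of their coding sequence, which is shown because the HSP110-type pair lacks it. The last codons of the canonical HSP70 and HSP90 genes encode the tail that TPR-domain cochaperones such as Stip1 and Stub1 grip. The last 30 coding bases of each member are printed 5′ to 3′ on the coding strand, from the GENCODE M21 transcripts, with the final 4 codons and the stop codon in capitals.
Hspa2: ggagggcccaccatcGAGGAAGTGGACTAG
Hspa1l: acaggccctaccatcGAGGAAGTAGATTAG
Hspa1a: tcaggacccaccatcGAGGAGGTGGATTAG
Hspa1b: tcaggacccaccatcGAGGAGGTGGATTAG
Hspa8: tcaggccccaccattGAAGAGGTGGATTAA
Hsp90aa1: gacacatcacgcatgGAAGAAGTAGACTAA
Hsp90ab1: gatgcctcgcgcatgGAAGAGGTGGATTAA
Hspa4l: accgactccggagagATGGAAGTGGACTAA
Hspa4: aagaagcttcctgagATGGACATTGATTGA
The first 7 of these ends encode the same 4 residues in part with different synonymous codons. Hspa4l and Hspa4, the HSP110-type pair, do not encode that tail.

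Sequence likeness matters for the values, since reads from near-identical copies cannot always be assigned. The coding sequences of Hspa1a and Hspa1b were 99.4% identical over their aligned length, against 82.8% for Hspa1l and Hspa1a and 78.2% for Hspa2 and Hspa1a. Hspa8 and Hspa2 were 73.6% identical, Hsp90aa1 and Hsp90ab1 75.6%, and Hspa4l and Hspa4 66.0%. Of the distinct 31-base words in the transcripts of Hspa1a, 63.8% also occur in Hspa1b and 12.1% in Hspa1l. For Hspa2, Hspa4l and Hspa4 the share of words found in any other gene was 0.1%, 0.7% and 0.0%, so these values are little touched by copies. Hspa8 shared 44.8% of its words with other genes, mostly processed pseudogenes, and the 3 that shared most (Gm15459, Gm26825 and Gm8355) were at 0.0, 0.0 and 0.248 FPKM. Hsp90aa1 shared 51.5% of its words, 46.7% with the pseudogene Gm12346, which was at 13.3 FPKM. How the authors treated reads that match several places is not stated in any source used here, so the values of Hspa1a, Hspa1b, Hspa8 and Hsp90aa1 are uncertain to that extent. Hspa1l shared 14.6% of its words with Hspa1a and 71.7% with Gm10501, which lies across it on the opposite strand and was at most at 0.096 FPKM. Strand handling is not stated either, so the value of Hspa1l is also uncertain. Hsp90ab1 shared 13.2% of its words with other genes.

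The germ-cell form Hspa1l and the inducible pair lie side by side on chromosome 17 (GRCm38). Hspa1b runs from 34956436 to 34959238 and Hspa1a from 34969190 to 34972156, both on the minus strand with 1 exon each. Hspa1l runs from 34972703 to 34979285 on the plus strand with 2 exons. Only 546 bases separate the start of Hspa1a from the start of Hspa1l. The 250 bases before each RefSeq start (assembly GRCm38.p6) are shown because neighbouring genes in this cluster differ so widely in level. In the first pair the capitals mark the bases at which Hspa1a and Hspa1b differ.
Hspa1a, minus strand, chr17:34972157-34972406: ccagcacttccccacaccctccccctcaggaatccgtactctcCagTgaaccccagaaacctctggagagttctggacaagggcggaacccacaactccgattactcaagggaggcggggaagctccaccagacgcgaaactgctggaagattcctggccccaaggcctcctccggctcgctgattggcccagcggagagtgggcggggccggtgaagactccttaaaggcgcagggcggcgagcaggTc
Hspa1b, minus strand, chr17:34959239-34959488: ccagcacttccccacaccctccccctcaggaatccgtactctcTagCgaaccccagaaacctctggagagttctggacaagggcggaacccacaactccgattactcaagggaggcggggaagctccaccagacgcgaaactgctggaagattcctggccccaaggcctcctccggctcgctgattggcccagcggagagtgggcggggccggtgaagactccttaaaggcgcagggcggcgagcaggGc
Counted from 1 at the 5′ end of the printed stretch, the Hspa1a base first, the differences are C44T, T47C and T249G. In Hspa1l the capitals mark matches to TGACG, the letters that open a cyclic AMP response element, and to CCAAT.
Hspa1l, plus strand, chr17:34972453-34972702: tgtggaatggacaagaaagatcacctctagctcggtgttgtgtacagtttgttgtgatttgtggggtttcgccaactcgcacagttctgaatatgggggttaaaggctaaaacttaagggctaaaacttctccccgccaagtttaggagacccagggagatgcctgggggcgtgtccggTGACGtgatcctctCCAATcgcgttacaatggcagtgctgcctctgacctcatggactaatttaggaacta

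A heat shock element is built from repeats of GAA in alternating direction. The letters GAANNTTC, searched on both strands, occurred once in the Hspa1a window and once in that of Hspa1b, 104 bases before the start, and 7.86% of 32851 windows of 300 bases (250 before and 50 after a start) held them. They were not found in the windows of Hspa2, Hspa1l, Hspa4l or Hspa4. The letters TTCNNGAA were found in none of the 6 windows, against 8.52% of all windows. TGACG was found in the windows of Hspa2, Hspa1l, Hspa4l and Hspa4 and in 20.8% of all windows, and CCAAT in those of Hspa2, Hspa1l, Hspa1a and Hspa1b and in 37.4% of all windows. The RefSeq starts of Hspa2 and Hspa4l lie inside the genes as GENCODE annotates them. On chromosome 12 the 250 bases for Hspa2 run from 76404120 to 76404369, and the annotated gene starts at 76404176. On chromosome 3 those for Hspa4l run from 40745363 to 40745612, wholly inside the gene that starts at 40744495. For these genes the matches therefore do not describe the bases before the outermost annotated start. Such matches describe letters only. Promoters of Hspa8, Hsp90aa1 and Hsp90ab1 were not analysed here.

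The libraries held 17059486 to 19343479 reads, worked back from the deposited FPKM (fragments per kilobase, scaled by a factor of each library). The factor corresponds to a read number that differed from the library's own total by -3.57% to 7.48%. The label testis was checked against marker genes. The 18 markers of elongating and elongated spermatids summed to 14040 to 23390 FPKM in controls and 10910 to 20120 FPKM in the knockout-labelled libraries, whereas 5 epididymal markers summed to at most 0.297 FPKM and Lcn5 was at 0 in every library. The targeted gene, Tmc7, had control values of 39.1, 37.7 and 37.2 FPKM and knockout-labelled values of 43.8, 41.9 and 35.1 FPKM, a log2 difference of 0.08 ± 0.10 (SE, limma adjusted p = 0.885). The groups overlapped, so Tmc7 RNA does not check the labels, and directions rest on the labels alone. Markers of late spermatids were lowest, and markers of Sertoli, myoid and immune cells highest, in knockout-labelled libraries 2 and 3. In these libraries 0.335% and 0.281% of the reads fell on models of small and ribosomal RNA, against 0.095% to 0.105% in the other 4.

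Hspa2 and Hsp90aa1 were the most abundant members, and the inducible pair had the lowest levels. Over the 6 libraries Hspa2 (chromosome 12 from 76404176 to 76406938, plus strand) averaged 661 FPKM and Hsp90aa1 (chromosome 12 from 110690605 to 110702728, minus strand) 601.5 FPKM. Hsp90ab1 (chromosome 17 from 45567775 to 45573271, minus strand) averaged 130.3 FPKM and Hspa4l (chromosome 3 from 40744495 to 40796103, plus strand) 87.1 FPKM. Hspa4 (chromosome 11 from 53259814 to 53300457, minus strand), Hspa8 (chromosome 9 from 40800984 to 40810087, plus strand) and Hspa1l followed at 69.7, 55.8 and 51.8 FPKM. Hspa1b and Hspa1a were at 1.55 and 1.20 FPKM. In this order the ranges over the 6 libraries overlapped between Hspa2 and Hsp90aa1, between Hspa4l and Hspa4, between Hspa8 and Hspa1l, and between Hspa1b and Hspa1a. Those of the other neighbours did not. The step from Hspa1l to Hspa1b was the widest, a 33.3-fold ratio of mean levels between genes of 1 cluster.

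**Figure D1:**
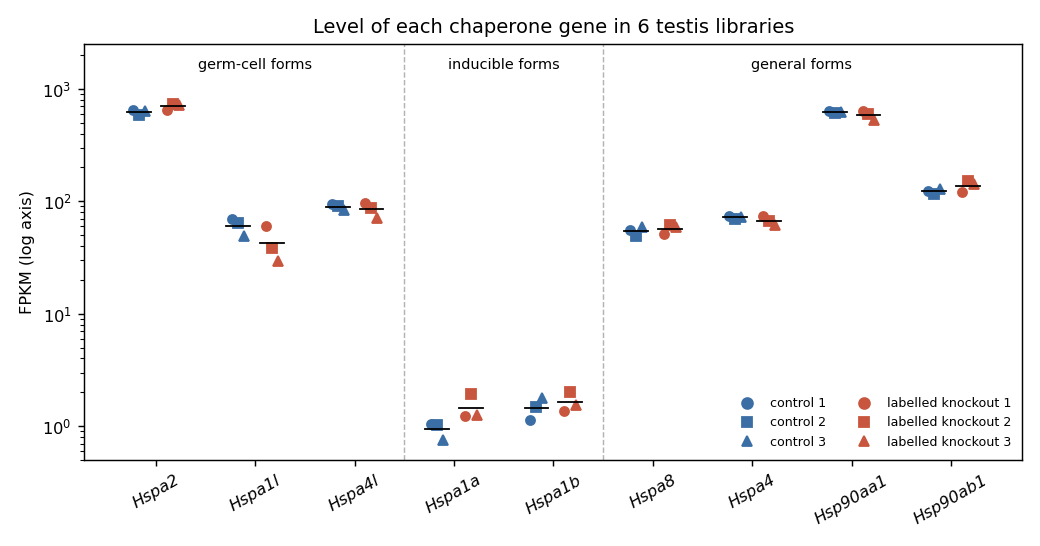
FPKM of the 9 chaperone genes on a log axis, with 1 point per library (blue for control, red for labelled knockout, marker shape for the library number) and a black bar at each group mean. Hspa2 and Hsp90aa1 lie at 524 FPKM or above in every library, Hspa1a and Hspa1b near 1 to 2 FPKM, and the points for Hspa1l spread most among the abundant genes.

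The order of levels depends in part on the length used. The deposited length joins the exons of all transcripts of a gene, which for Hspa8 is 4301 bases against 2394 bases for its principal transcript and for Hspa4l 11792 against 9479 bases. With the length of the principal transcript, Hspa8 was at 100.2 FPKM, above Hspa4 at 83.4 FPKM in 6 of 6 libraries. Hsp90aa1 was then at 721 FPKM and Hspa2 at 691.5 FPKM, with Hsp90aa1 higher in 4 of 6 libraries, whereas with the deposited length Hspa2 was higher in 5 of 6. The length of a gene is the same in every library, so it leaves the ratio of a gene between libraries as it is, but it moves sums over genes and, for low genes, values of log2(FPKM + 1).

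The comparison between the groups asked whether germ-cell forms and general forms differ between testes labelled knockout and control. By limma-trend with Benjamini-Hochberg adjustment over 19168 genes, 0 of 9 members passed at an adjusted p of 0.05, and 0 of 9 had an unadjusted p under 0.05. Over all genes tested 0.0% passed as higher and 0.0% as lower, and 1.48% and 2.38% had an unadjusted p under 0.05 in those directions. By limma-voom on the recovered reads 0 of 9 members passed, where 0.0% of 20556 genes passed as higher and 0.00486% as lower. In that fit Hspa1l (lower) and Hspa1a (higher) had an unadjusted p of 0.0331 and 0.0413, against 2.22% lower and 1.6% higher among all genes. The log2 difference was above 0 in 5 and below 0 in 4 members, with 48.6% of all genes above 0. Their median was 0.06, beside -0.01 over all genes tested. The libraries of the groups did not overlap in 1 of 9 members, Hspa1a, against 8.56% of all genes.

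**Figure D2:**
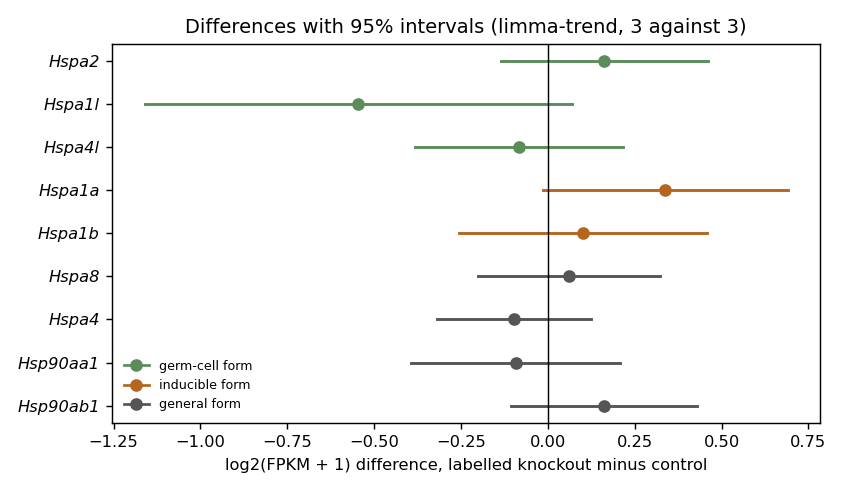
Difference in log2(FPKM + 1), labelled knockout minus control, for each member (point) with its 95% interval from limma-trend (line), coloured by class of chaperone. Every interval includes 0, and that of Hspa1l is the widest, from -1.16 to 0.07.

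Among the germ-cell forms, Hspa2 had the highest level. Hspa2 had control values of 650.3, 590.2 and 629 FPKM and knockout-labelled values of 644, 733 and 717 FPKM. Knockout-labelled libraries 2 and 3 lay above all controls, and library 1 lay within their range. Averaged by group, Hspa2 was at 623 ± 30.4 and 698 ± 47.6 FPKM (SD, n = 3 each). The log2 difference was 0.16 ± 0.13 (SE), with a 95% interval from -0.13 to 0.46 (limma adjusted p = 0.868). At 28285 reads or more in every library, counting error is small beside the spread between libraries.

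On the log2(FPKM + 1) scale Hspa1l, the spermatid form, had the largest difference of the 9 members in size and the widest interval. By limma-voom on the recovered reads Hspa1a had the larger difference, 0.62 against -0.56. Hspa1l had control values of 70.1, 63.5 and 48.8 FPKM and knockout-labelled values of 60.4, 38.4 and 29.4 FPKM. Control library 3 lay below knockout-labelled library 1, so the groups overlapped, and knockout-labelled libraries 2 and 3 were lower than every control. The means were 60.8 ± 10.9 and 42.7 ± 15.9 FPKM (SD, n = 3 each), a ratio of 0.702. The log2 difference was -0.55 ± 0.26 (SE), with an interval from -1.16 to 0.07 (limma adjusted p = 0.868). It was -0.82 without knockout-labelled library 1 (limma adjusted p = 0.154) and -0.31 without knockout-labelled library 3 (limma adjusted p = 0.999), so the size of this value rests on those libraries.

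The late spermatid markers moved with Hspa1l across libraries. Their mean level, as log2(FPKM + 1) centred on the 6 libraries, was 0.44, 0.23 and -0.14 in controls and 0.31, -0.30 and -0.54 in the knockout-labelled libraries. The libraries with the 3 lowest marker levels (control library 3 and knockout-labelled libraries 2 and 3) were also the 3 lowest for Hspa1l, in the same order. All 18 markers had a log2 difference below 0 (median -0.38), and 0 of 18 passed. The pattern was not limited to late spermatids. The 11 round spermatid markers were at 0.19, 0.07 and -0.02 in controls and 0.14, -0.21 and -0.175 in the knockout-labelled libraries. Of these, 10 had a difference below 0 (median -0.14), and 0 passed. The part of these markers in the values of Hspa1l was not tested. In RNA of whole testis, fewer spermatids and less RNA per spermatid cannot be told apart.

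Hspa4l, an HSP110-type exchange factor strong in germ cells, had control values of 93.96, 90.7 and 83.5 FPKM and knockout-labelled values of 95.7, 87.4 and 71.4 FPKM. Knockout-labelled library 3 was lowest and library 1 highest of all 6. The log2 difference was -0.08 ± 0.13 (SE, limma adjusted p = 0.898), and it changed sign, to 0.035, without knockout-labelled library 3. The median log2 difference of the 3 germ-cell forms was -0.08, between a positive value for Hspa2 and a negative one for Hspa1l.

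The inducible pair was low in every library. Hspa1a, a stress-induced HSP70 like Hspa1b, had control values of 1.045, 1.02 and 0.754 FPKM and knockout-labelled values of 1.23, 1.92 and 1.24 FPKM. All 3 knockout-labelled libraries lay above all controls, and library 2 was highest. The log2 difference was 0.34 ± 0.15 (SE), with an interval from -0.01 to 0.69 (limma adjusted p = 0.868). Since 1 is added before the logarithm, this understates the change of so low a gene. The ratio of group means was 1.56, and limma-voom gave 0.62 ± 0.27 (SE, adjusted p = 0.858). Without knockout-labelled library 2 the limma-trend value was 0.21.

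These values rest on 43 to 99 reads per library. The exact 95% Poisson interval, which covers counting error only, ran from 0.778 to 1.37 FPKM in control library 1 and from 0.957 to 1.56 FPKM in knockout-labelled library 1, so these neighbouring libraries cannot be told apart at this depth. Hspa1b had control values of 1.13, 1.48 and 1.78 FPKM and knockout-labelled values of 1.36, 2.02 and 1.56 FPKM, with groups that overlapped. Its log2 difference was 0.10 ± 0.15 (SE, limma adjusted p = 0.892). This value was 0.0003 without control library 1, 0.0029 without knockout-labelled library 2 and 0.19 without control library 3. With both copies summed, because most of their sequence is shared, the control levels were 2.17, 2.503 and 2.54 FPKM. Knockout-labelled libraries had 2.59, 3.94 and 2.80 FPKM, all above the controls. The sum includes Hspa1a, whose own groups did not overlap. Among all genes tested, taken singly, the groups did not overlap in 8.56%. The nearest libraries, control library 3 and knockout-labelled library 1, had 139 and 141 reads. Their exact 95% Poisson intervals were 117 to 164 and 119 to 166 reads, so these neighbouring libraries cannot be told apart at this depth. For the same sum, knockout-labelled library 2 had 197 reads, with an interval from 170.4 to 226.5 reads, above those of all controls. The means of this sum were 2.40 ± 0.201 and 3.11 ± 0.727 FPKM (SD, n = 3 each).

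Peritubular myoid and immune markers stood highest in knockout-labelled libraries 2 and 3. Hspa1a was highest in knockout-labelled library 2, whereas library 3 (72 reads) was close to library 1 (69 reads). The peritubular myoid markers had centred levels of -0.18, -0.20 and -0.04 in controls and -0.14, 0.41 and 0.15 in the knockout-labelled libraries. The macrophage and leukocyte markers were at -0.28, -0.14 and -0.04 and at -0.15, 0.28 and 0.33. Knockout-labelled library 1 was within the control range for both lists. The 6 myoid markers summed to 44.2 to 50.9 FPKM in controls and 47.5 to 77.2 FPKM in the knockout-labelled libraries, and the 8 immune markers to 33.6 to 40.9 and 37.2 to 62.1 FPKM. Of the tested myoid and immune markers 5 of 5 and 7 of 7 had a difference above 0, and 0 passed. The markers of Leydig cells, which also lie around the tubules, did not share this order. Their centred levels were -0.11, 0.11 and 0.195 in controls and 0.14, 0.16 and -0.50 in the knockout-labelled libraries, lowest in library 3. Of these, 6 of 8 had a difference below 0, and 0 passed. The part of these cells in the values of Hspa1a and Hspa1b was not tested.

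**Figure D3:**
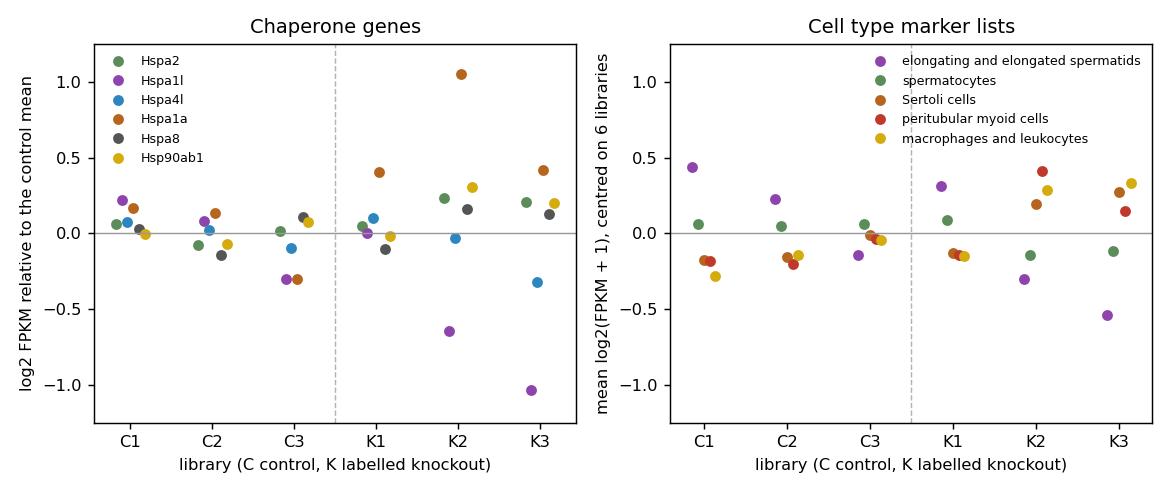
Left, log2 FPKM of 6 members relative to their control mean in each library, and right, mean centred log2(FPKM + 1) of 5 marker lists in the same libraries (C control, K labelled knockout, numbered by library, points shifted sideways for sight). Hspa1l reaches -1.03 in K3 and -0.65 in K2, where the late spermatid markers are at -0.54 and -0.30. Library K1 lies near the controls in both panels except for Hspa1a, which rests there on 69 reads.

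Each of the general forms had groups that overlapped. Hspa8, the constitutive HSP70 of nearly all cells, had control values of 55.6, 49.4 and 58.7 FPKM and knockout-labelled values of 50.7, 60.9 and 59.5 FPKM. Both groups spanned nearly the same range. Its log2 difference was 0.06 ± 0.11 (SE), with an interval from -0.20 to 0.32 (limma adjusted p = 0.912). Hspa4, the general HSP110-type factor, had control values of 74.0, 69.9 and 72.0 FPKM and knockout-labelled values of 73.3, 66.8 and 62.0 FPKM. Knockout-labelled libraries 2 and 3 were below all controls and library 1 was within their range. Its log2 difference was -0.10 ± 0.09 (SE, limma adjusted p = 0.868).

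The 2 cytosolic HSP90 genes had differences of opposite sign. Hsp90aa1 had control values of 633, 604 and 624 FPKM and knockout-labelled values of 630.0, 595 and 524 FPKM, with library 3 lowest of all. Its log2 difference was -0.09 ± 0.13 (SE, limma adjusted p = 0.885), and it was 0.022 under quantile normalization. Hsp90ab1, the form made steadily in most cells, had control values of 122, 117 and 129 FPKM and knockout-labelled values of 121, 152 and 141 FPKM. Knockout-labelled libraries 2 and 3 were the highest, and library 1 lay among the controls. Its log2 difference was 0.16 ± 0.11 (SE), with an interval from -0.11 to 0.43 (limma adjusted p = 0.868). It was 0.09 without knockout-labelled library 2 and 0.25 without knockout-labelled library 1 (limma unadjusted p = 0.0396, adjusted p = 0.254). The share of Hsp90aa1 in the sum of both was 83.5% ± 0.557 in controls and 80.8% ± 2.73 in the knockout-labelled libraries (SD, n = 3 each), with 83.9% in library 1 and 79.7% and 78.8% in libraries 2 and 3.

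Germ-cell forms were set against the others as shares of summed FPKM, as a description with no test. The 9 members summed to 1645 ± 57.1 FPKM in controls, against 1674 ± 65.3 FPKM in the knockout-labelled libraries (SD, n = 3 each). Germ-cell forms made up 47.9%, 46.9% and 46.2% of that sum in controls and 47.7%, 49.4% and 50.9% in the knockout-labelled libraries. The groups overlapped through knockout-labelled library 1. Hspa2 made up most of this share, so it shows little of Hspa1l and Hspa4l. The median log2 difference of the 6 inducible and general forms was 0.08, and that of the 3 germ-cell forms -0.08, each within a range of values of both signs. Neither median was steady when 1 library was left out. That of the germ-cell forms was 0.03 without knockout-labelled library 3 and -0.17 without knockout-labelled library 1, and that of the other forms was 0.01 without knockout-labelled library 2 and 0.16 without knockout-labelled library 1.

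Among the 5 canonical HSP70 genes, Hspa2 held most of the RNA and Hspa1l varied most in its share. Hspa2 was 83.6%, 83.7% and 85.1% of their sum in controls and 85.0%, 87.7% and 88.7% in the knockout-labelled libraries. Hspa1l was 9.01%, 9.002% and 6.60% in controls and 7.97%, 4.59% and 3.63% in the knockout-labelled libraries. Hspa8 was 7.36% ± 0.509 and 7.11% ± 0.366 (SD, n = 3 each), and the inducible pair together at most 0.471% in any library. Within a library the ratio of Hspa2 to Hspa1l was 9.27, 9.29 and 12.9 in controls and 10.7, 19.1 and 24.4 in the knockout-labelled libraries. The 2 germ-cell HSP70 genes therefore lay closest to each other in control libraries 1 and 2 and furthest apart in knockout-labelled libraries 2 and 3. The ratio of Hspa1l to its neighbour Hspa1a was 67.1, 62.3 and 64.7 in controls and 49.1, 20.0 and 23.6 in the knockout-labelled libraries, with groups that did not overlap. The ratio of Hspa2 to Hspa1a was 622, 579 and 834 in controls and 524, 381 and 576 in the knockout-labelled libraries, all lower. The ratio of Hspa2 to Hspa8 was 11.7, 11.9 and 10.7 in controls and 12.7, 12.04 and 12.05 in the knockout-labelled libraries, all higher, though the nearest libraries differed by less than the controls among themselves. These were the 3 of 7 ratios computed in which the groups did not overlap. None carries a test, and no share over other pairs of genes was computed to set beside this count. The first 2 are both ratios to Hspa1a, whose own groups did not overlap and whose low read number applies to them. The ratio of Hspa4l to Hspa4 was 1.24 ± 0.0729 and 1.255 ± 0.0891 (SD, n = 3 each).

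The markers of spermatocytes, the stage at which Hspa2 is first abundant, were read beside Hspa2. Their centred level was 0.06, 0.05 and 0.06 in controls and 0.09, -0.14 and -0.12 in the knockout-labelled libraries, lowest in the libraries where Hspa2 was highest. They summed to 2703 to 3126 FPKM in controls and 2317 to 3006 FPKM in the knockout-labelled libraries. Of the 11 markers, 3 had a log2 difference above 0 and 8 below 0, and 0 of 11 passed. The Sertoli markers were at -0.18, -0.15 and -0.01 and at -0.13, 0.20 and 0.27, summing to 493.5 to 526 FPKM and 495 to 649 FPKM, with 13 of 13 tested markers above 0 and 0 passed. The part of these cells in the values of Hspa2 was not tested.

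Partner genes of the chaperone cycle were read from 7 lists holding 78 genes, of which 72 were tested and 0 passed in either direction by limma-trend (smallest adjusted p = 0.868). At an unadjusted p under 0.05 there was 1 higher and 1 lower gene. The log2 difference was above 0 in 29 and below 0 in 43 of them, with a median of -0.03 beside -0.01 for all genes tested. The groups did not overlap in 4 of 72, 3 of them higher and 1 lower, against 4.15% of all genes for higher and 4.41% for lower.

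The J-domain partners had the lowest median of the 7 lists, -0.11, with 15 of 20 below 0. Their mean level, centred as for the late spermatid markers, was 0.16, 0.07 and -0.04 in controls and 0.12, -0.11 and -0.20 in the knockout-labelled libraries, which puts the 6 libraries in the same order as those markers do. The part of the markers in these values was not tested. Dnajb3, a testis J-domain protein of spermatids, had the highest level in this list, with control values of 625, 509.7 and 463 FPKM and knockout-labelled values of 535, 407 and 445 FPKM. Dnajb1, the stress-responsive J-domain partner of HSP70, was at 131, 115 and 115 FPKM and at 127, 116 and 121 FPKM, with a log2 difference of 0.02. Dnajc5b, a testis-enriched member of the cysteine string protein group, had one of the 2 smallest p-values among lower partner genes. Dnajc5b had control values of 97.7, 91.9 and 77.6 FPKM and knockout-labelled values of 93.2, 45.8 and 53.2 FPKM, a log2 difference of -0.53 ± 0.25 (SE, limma adjusted p = 0.868). Like Hspa1l it was lowest in knockout-labelled libraries 2 and 3, and library 1 lay among the controls.

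Of the exchange and release factors, Bag5 and Bag6 had the highest levels. Bag6, which is known to stabilise the HSPA2 protein in the testis, had control values of 258, 253 and 235.5 FPKM and knockout-labelled values of 247, 282 and 247 FPKM. Bag5 was at 331, 306.5 and 271 FPKM and at 309, 245 and 239 FPKM, with overlapping groups and a log2 difference of -0.20 (limma adjusted p = 0.868). The median of the 9 tested genes of this list was 0.00.

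HSP90 cochaperones had a median of 0.04, with 10 of 19 tested genes above 0. Fkbp4, an immunophilin that binds the tail of HSP90, had control values of 201, 176 and 191 FPKM and knockout-labelled values of 189, 208 and 208 FPKM. Fkbpl was at 96.4, 79.8 and 69.3 FPKM and at 87.1, 71.5 and 64.5 FPKM. Stip1, which hands clients from HSP70 to HSP90, had control values of 62.7, 52.2 and 59.2 FPKM and knockout-labelled values of 63.2, 73.2 and 68.5 FPKM. All knockout-labelled libraries lay above all controls, though library 1 only just did so. The log2 difference of Stip1 was 0.23 ± 0.11 (SE, limma adjusted p = 0.868).

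The log2 differences of the 8 other HSP70 genes ran from -0.12 to 0.22 (highest in Hyou1), those of Hsp90b1 and Trap1 were -0.15 and 0.11, and those of the 5 tested heat shock factor genes ran from -0.11 to 0.19 (highest in Hsf1). Hyou1 and Hsf1 were chosen for naming after their values were seen. Hspa5, the HSP70 of the endoplasmic reticulum, had control values of 164, 140.3 and 146 FPKM and knockout-labelled values of 146.5, 136 and 145 FPKM. Mitochondrial Hspa9 was at 88.3, 82.0 and 87.0 FPKM and at 87.2, 90.6 and 77.2 FPKM. Hsp90b1 of the endoplasmic reticulum was at 121, 112 and 118 FPKM and at 114, 97.7 and 104 FPKM, and mitochondrial Trap1 at 45.5 ± 2.001 and 49.3 ± 2.21 FPKM (SD, n = 3 each), with groups that did not overlap. Hsf5, a heat shock factor family member of spermatocytes, had control values of 80.3, 75.7 and 75.1 FPKM and knockout-labelled values of 81.6, 77.1 and 71.2 FPKM, a log2 difference of -0.01. Hsbp1, which binds heat shock factor, was at 199.8, 169.5 and 183 FPKM and at 183, 141 and 193 FPKM. Of the 5 tested genes of the heat shock factor list 0 passed.

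Of 9 tested small and mitochondrial heat shock proteins, 0 passed, and 1 had an unadjusted p under 0.05 in each direction. Hspb9, a testis form that also stands in the late spermatid marker list, had control values of 681, 537 and 513 FPKM and knockout-labelled values of 624, 456 and 619.6 FPKM, and did not share the low value of Hspa1l in library 3. Hspb1, found in muscle and other somatic cells, had control values of 17.2, 20.6 and 21.9 FPKM and knockout-labelled values of 16.7, 39.0 and 30.99 FPKM. Knockout-labelled library 1 had the lowest and libraries 2 and 3 the highest values. Cryab, a small heat shock protein of muscle and lens, had control values of 1.19, 0.876 and 1.20 FPKM and knockout-labelled values of 1.32, 1.72 and 1.70 FPKM, a log2 difference of 0.30 (limma unadjusted p = 0.0472, adjusted p = 0.868). Hspb11, also known as the intraflagellar transport protein IFT25, had control values of 5.31, 4.95 and 4.88 FPKM and knockout-labelled values of 4.01, 3.73 and 4.09 FPKM. Its groups did not overlap, and the log2 difference was -0.29 ± 0.09 (SE, limma unadjusted p = 0.0154, adjusted p = 0.868).

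**Figure D4:**
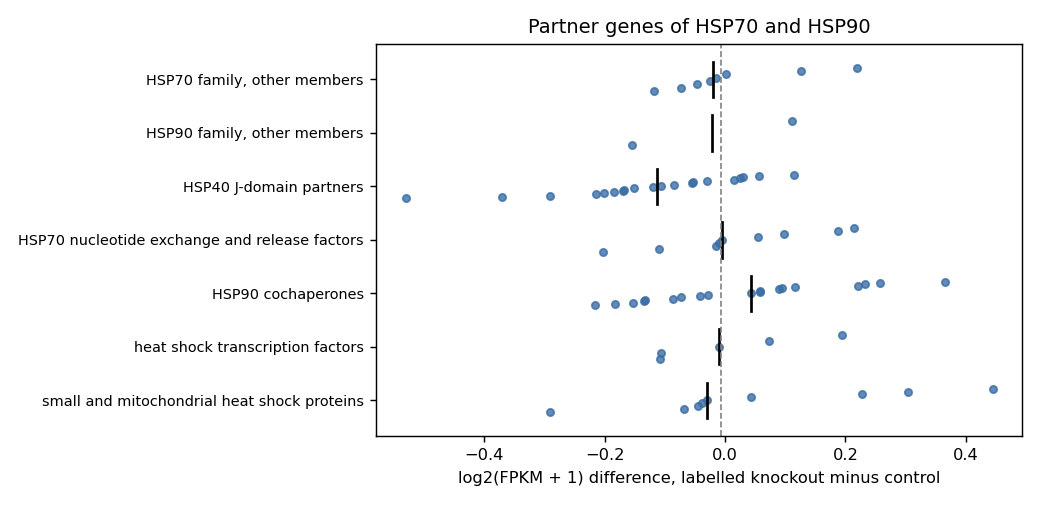
Difference in log2(FPKM + 1), labelled knockout minus control, of each tested partner gene (points) in 7 lists, with the list median as a black bar and the median of all tested genes as a dashed line. The J-domain list has the lowest median, -0.11, and every list has points on both sides of the dashed line.

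The genes most like each germ-cell form were taken as those with the highest Pearson r of log2(FPKM + 1) over the 6 libraries, among 4662 other genes that averaged at least 10 FPKM. Across so few libraries many genes reach a high r, so these are descriptions. For Hspa1l they were Psme3, Lrp2bp and Bmi1 (r from 0.994 to 0.997), and 251 genes had an r of at least 0.95. Bmi1, a Polycomb protein, had control values of 45.5, 43.2 and 34.4 FPKM and knockout-labelled values of 41.8, 31.5 and 24.7 FPKM. For Hspa4l they were Cnbd2, Ube2k and Nbr1 (r from 0.996 to 0.997), with 222 genes at 0.95 or above. For Hspa2 they were Prdx2, Oat and Tbc1d1 (r from 0.982 to 0.987), with 58 genes at 0.95 or above.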

How the data were processed

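Values for 6 testis libraries came from 1 table, in which the authors deposited FPKM, the unit its name gives. RNA was extracted with Trizol and a SMARTER mRNA-Seq kit was used, per the labels' protocols. GRCm38 (mm10) is the build in the submitters' processing notes; aligner, counter, strand handling and treatment of multiply matching reads: not given in the sources used here. Groups and replicate numbers came from the titles. Members, lists and tests were chosen with earlier results of these data known.

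Multiplied by gene length, 100% of the values above 0 were whole multiples (tolerance 0.001) of the smallest step in their library, which gave whole reads. The 19168 of 55711 entries whose mean reached 0.5 FPKM entered limma 3.58.1 (R 4.3.3) as log2(FPKM + 1), with a trend and group as the only term, at a Benjamini-Hochberg adjusted p under 0.05. A difference on this scale understates changes of low genes. All 9 members passed the filter and had the position given in GENCODE M21. The procedure was tested on simulated data with planted changes larger than the differences of any member. That check does not show whether differences as small as those of the members would be found. Named genes were the members, the 2 highest in FPKM of each partner list, the 2 of smallest p in each direction over all lists, and the 3 genes most like each germ-cell form, without predicted genes and pseudogenes. Genes sharing sequence with members were named after their values were seen. Promoters of 6 members came from RefSeq (GRCm38.p6). Alternatives were another pseudocount, other filters, quantile normalization, limma-voom on the reads (mean of at least 10), the replicate number as a block, and each library left out; the principal transcript length was added after seeing the data. Deviations of same-numbered libraries had correlations of 0.041 to 0.286, which do not settle whether the numbers mark pairs. No pairing was used in the main fit.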

Additional observations from a re-analysis of the deposited data

How the results depend on the processing

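No member passed the threshold under any of the alternatives run (adjusted p from 0.154 to 0.9999 in 106 values). In 25 of these (replicate block and filters on low values) the log2 difference equals the main value by construction. Of the other 81 the direction was kept in 78. It turned for Hsp90aa1 under quantile normalization (0.022), for Hspa8 without control replicate 2 and for Hspa4l without knockout replicate 3; the cause was not tested. Leaving out 1 library at a time gave -0.0070 to 0.14 for Hspa8, -0.17 to 0.035 for Hspa4l, 0.12 to 0.22 for Hspa2, -0.16 to -0.04 for Hspa4 and -0.15 to -0.02 for Hsp90aa1, with the lowest value of the last 2 without knockout replicate 1 and the highest without knockout replicate 3. Under quantile normalization Hspa2 was at 0.24 and Hspa4 at -0.04. The log2 difference ranged from -0.82 to -0.31 for Hspa1l and from 0.21 to 0.62 for Hspa1a, the upper value by limma-voom. The count of genes called was 0 under each alternative except limma-voom on recovered reads, where it was 1. The median of the inducible and general forms was -0.015 with a mean of at least 2 FPKM, a filter that leaves out Hspa1a and Hspa1b and so keeps 4 of 6 genes. The difference in the germ-cell share, 2.34 percentage points in the main setting, was 0.915 with Hsp90aa1 and Hsp90ab1 left out of the sum (85.7% in controls and 86.6% in the knockout-labelled libraries). With the replicate number as a block 0 genes were called, so no call changed. The log2 differences of Hspa1l and Hspa2 stayed at -0.55 and 0.16 by construction. The SE of Hspa1l fell from 0.26 to 0.13, and its limma unadjusted p from 0.0739 to 0.00601 (adjusted p = 0.662). Over all genes 1411 had a limma unadjusted p under 0.05 with the block, against 741 without it. The correlation of deviations between same-numbered libraries was 0.286, 0.041 and 0.198. Between libraries of different number it ran from -0.322 to 0.17. These values do not settle whether the numbers mark pairs, and the main fit did not take them as pairing. Depth limits Hspa1a and Hspa1b, with 43 to 99 reads per library; for the other members, with at least 1416 reads, the spread between 3 libraries limits precision.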
